A study of Mus musculus with 8 samples.

Results

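The 9 genes described here belong to the TGF-beta pathway and its BMP7 counterpart. They were taken by symbol from the gene counts, as 9 of the 22609 genes listed, and all 9 passed the filter on low counts that left 13944 genes to test. They are the ligands Tgfb1, Tgfb2 and Bmp7, the receptors Tgfbr1 and Tgfbr2, the signal transducer Smad3, the inhibitor Smad7, and the targets Ctgf and Fn1. RNA came from the renal cortex of 4 aged (30 months) and 4 young (5 months) male C57BL6 mice, with one library per mouse and no treatment in either group. These ages are those of the labels, and the study's methods for the sequencing give a somewhat higher mean age for the aged mice. The cortex was taken whole, so fewer cells of a type and less RNA per cell cannot be told apart in any value given here.

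TGF-beta ligands are secreted in a latent form, held by latent binding proteins in the matrix and freed by integrins and proteases. The free ligand joins the type II receptor Tgfbr2 to the type I receptor Tgfbr1, which phosphorylates Smad3 and its relative Smad2, and these enter the nucleus with Smad4. The pathway is known in the kidney for driving the deposition of fibronectin and collagen, whereas Bmp7, made by the tubules and podocytes of the normal kidney, signals through other receptors and Smads and is known to oppose fibrosis.

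None of the 9 genes passed the thresholds between aged and young mice. Tgfb2 came nearest, at 1.81 times its young level, with every aged mouse above every young mouse. Bmp7 stood at 0.853 and Fn1 at 0.862 of the young level, Ctgf at 1.21 times, and the other 5 between 0.929 and 1.08 times. Outside the 9 genes, the BMP antagonist Grem1 and the TGF-beta-induced gene Tgfbi passed the thresholds, both higher in the aged mice. They were 2 of 86 other pathway genes tested, or 2.33%, against 2.06% of all genes tested. With 1 mouse left out at a time, Grem1 kept its call in 3 of 8 fits and Tgfbi in 1 of 8. The share of all genes called also changed in these fits. It was 0.815% to 5.21% without 1 aged mouse and 0.0567% to 0.248% without 1 young mouse.

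Calls rest on the quasi-likelihood test of edgeR, adjusted over every gene tested by the Benjamini-Hochberg method, and needed an adjusted p below 0.05 as well as a change of more than 1.5 times, up or down. These thresholds called 287 genes, which is 2.06% of the 13944 tested, and 0 of the 9. At an unadjusted p below 0.05 the count was 1 of the 9, where 25.5% of all genes passed. DESeq2 called 1 of the 9 (Tgfb2), where it called 6.26% of all genes, and limma-voom called 0, where it called 3.46%. The groups did not overlap in 1 of the 9 genes, with the aged mice higher, against 18.9% of all genes tested and 8.85% with the aged mice higher. The median log2 fold change of the 9 genes was -0.04 and that of all genes tested 0.03.

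Each library held from 14820804 to 19821429 read pairs assigned to genes. Levels are given as CPM, the usual depth-scaled read count, taken on the TMM-scaled library, which corrects for depth and for differences in composition between libraries. All 8 proximal tubule markers were detected, and Lrp2 was the highest of them. Aged mouse 1 stood apart. Its summed proximal tubule markers reached 9950 CPM, where the other aged mice lay between 20340 and 23070 CPM and the young mice between 19930 and 24030 CPM. It lay at -71.5 on the first principal component, where the other 7 libraries lay between -16.3 and 26.2.

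Neither TGF-beta ligand passed the thresholds. Tgfb1, the TGF-beta isoform most studied in renal fibrosis (chromosome 7 of mm9, 26472021 to 26490096), stood at 14.8, 19.1, 17.5 and 17.1 CPM for aged mice 1 to 4, against 18.8, 19.0, 17.2 and 16.95 CPM for young mice 1 to 4. The groups overlapped, and aged mouse 1 was the lowest of the 8. The means were 17.1 ± 1.79 CPM (SD, n = 4) among the aged, against 18.0 ± 1.07 CPM (SD, n = 4) among the young, giving a log2 change of -0.07 (standard error 0.10, edgeR adjusted p = 0.673). The 95% interval from -0.30 to 0.16 lay inside the fold threshold on both sides.

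Tgfb2, an isoform with the same receptors that needs betaglycan for high-affinity binding (chromosome 1, 188447065 to 188529871), was a low-abundance gene. Its read counts were 96, 134, 147 and 88 for aged mice 1 to 4, against 71, 80, 44 and 47 for young mice 1 to 4. After scaling these became 4.71, 8.72, 7.86 and 4.80 CPM in the aged and 4.38, 4.23, 2.99 and 2.78 CPM in the young mice. Aged mice 2 and 3 were the highest, and aged mice 1 and 4 lay just above the highest young mouse. The means were 6.52 ± 2.07 CPM (SD, n = 4) among the aged, against 3.59 ± 0.827 CPM (SD, n = 4) among the young, a log2 fold change of 0.85 (standard error 0.27, 95% interval 0.25 to 1.45). The unadjusted p was 0.0105 and the edgeR adjusted p 0.0991, which did not pass. Over the 17 other ways of fitting the counts, the log2 fold change of Tgfb2 stayed between 0.68 and 0.98, and the adjusted p ran from 0.0337 with DESeq2, the only fit in which it passed, to 0.234 without young mouse 4.

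A ratio of both ligands within a library does not depend on the scaling between libraries. Tgfb2 had 0.319, 0.456, 0.450 and 0.280 counts per Tgfb1 count for aged mice 1 to 4, against 0.233, 0.222, 0.174 and 0.164 for young mice 1 to 4. Every aged mouse was above every young mouse. The mean log2 ratio was -1.44 ± 0.35 (SD, n = 4) among the aged, against -2.34 ± 0.25 (SD, n = 4) among the young. This ratio is given without a test.

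The sequences before the starts of these ligand genes are shown because these isoforms share receptors and differ in level. They are the 250 bases upstream of the start in RefSeq on GRCm38.p6, a later build than the mm9 of the counts, read 5′ to 3′ in the direction of the gene. Capitals mark CAGAC or its reverse complement GTCTG, letters that Smad3 and Smad4 are known to bind, and GGCGCC, letters linked to the Smads of the BMP branch. CAGAC occurs on either strand in 42.2% and GGCGCC in 9.59% of the 32851 windows of this length in the same table. Tgfb1 (chr7:25686752-25687001, plus strand) had neither, with a GC content of 75.2%, and Tgfb2 (chr1:186705990-186706239, minus strand) had 2 matches to CAGAC, with a GC content of 53.6%. A match is only a description of these letters.
Tgfb1: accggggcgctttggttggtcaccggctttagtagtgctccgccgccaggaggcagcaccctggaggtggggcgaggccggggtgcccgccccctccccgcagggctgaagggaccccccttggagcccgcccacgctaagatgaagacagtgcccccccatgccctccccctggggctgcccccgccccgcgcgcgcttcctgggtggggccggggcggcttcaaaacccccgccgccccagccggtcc
Tgfb2: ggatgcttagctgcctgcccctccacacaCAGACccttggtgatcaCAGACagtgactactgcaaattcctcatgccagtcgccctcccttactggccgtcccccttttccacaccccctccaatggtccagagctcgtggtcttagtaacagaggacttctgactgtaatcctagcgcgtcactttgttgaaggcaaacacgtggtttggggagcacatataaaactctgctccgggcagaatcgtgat

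Bmp7, the protective ligand (chromosome 2, 172693513 to 172765822), stood at 29.6, 42.7, 40.1 and 45.2 CPM for aged mice 1 to 4, against 42.7, 46.3, 47.1 and 48.5 CPM for young mice 1 to 4. Aged mouse 1 was the lowest by a wide margin, and the groups overlapped. The means were 39.4 ± 6.84 CPM (SD, n = 4) and 46.2 ± 2.50 CPM (SD, n = 4), giving on the log2 scale a change of -0.23 (standard error 0.13, 95% interval -0.52 to 0.06, edgeR adjusted p = 0.282). Without aged mouse 1, the library with the low proximal tubule markers, the log2 fold change of Bmp7 was -0.11, and without aged mouse 4 it was -0.30. Bmp7 had 2.00, 2.23, 2.30 and 2.64 counts per Tgfb1 count for aged mice 1 to 4, against 2.27, 2.43, 2.74 and 2.86 for young mice 1 to 4. The ratios overlapped, and the means on the log2 scale were 1.19 ± 0.16 (SD, n = 4) among the aged, against 1.36 ± 0.15 (SD, n = 4) among the young.

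**Figure D1:**
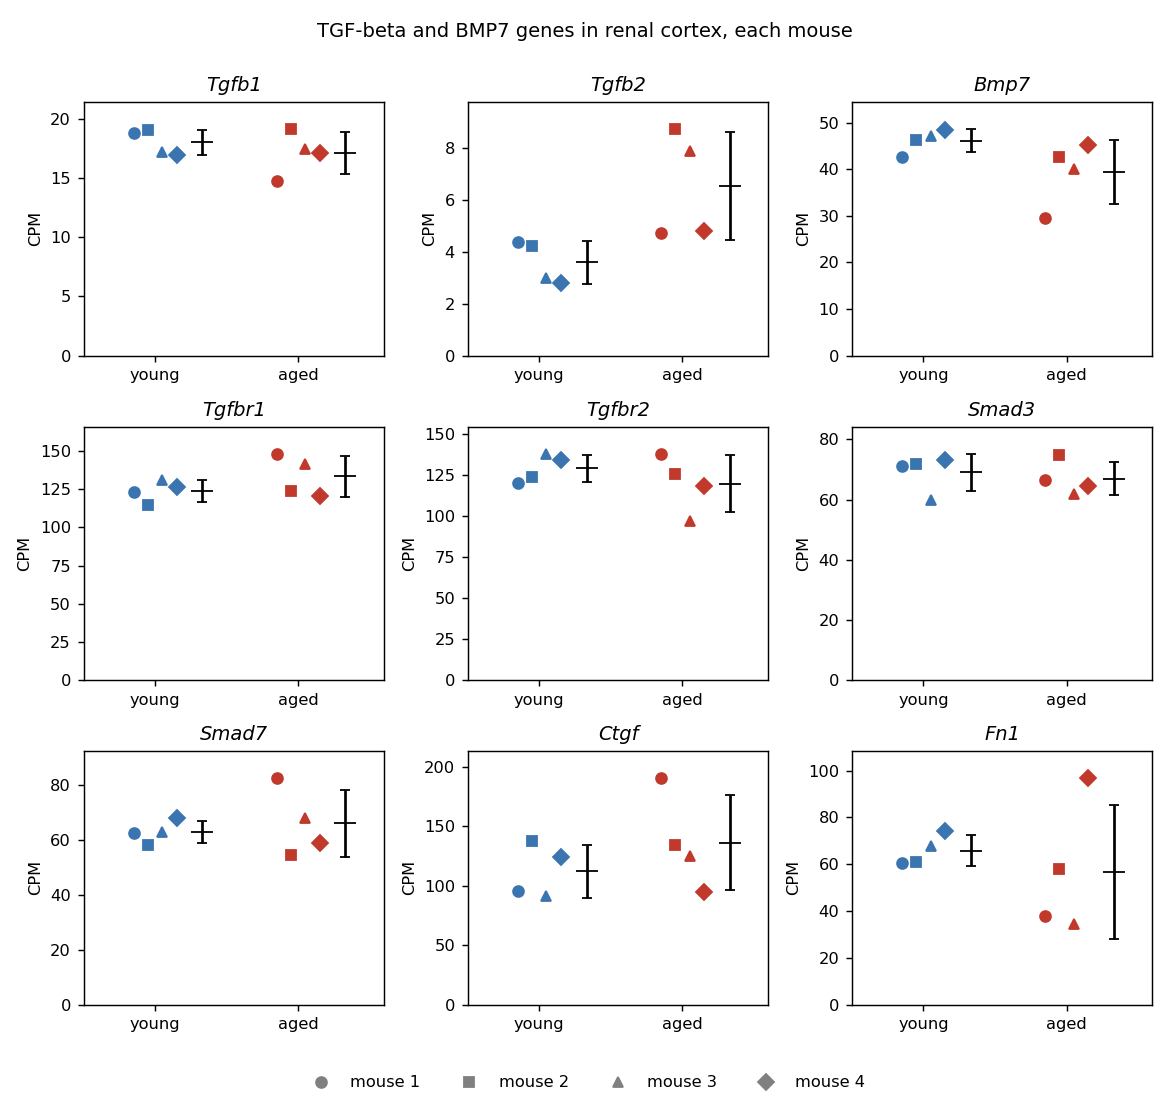
TMM-scaled CPM (vertical axis, linear, from 0) of the 9 genes in each young (blue) and aged (red) mouse, with the marker shape giving the mouse number and the black bar the mean ± SD of 4 mice. Tgfb2 is the gene in which the groups do not overlap, and the aged mice spread widely in Fn1, from 34.5 to 96.7 CPM, and in Ctgf, from 94.4 to 190 CPM.

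The receptors were close to their young levels. Tgfbr1, the type I receptor kinase (chromosome 4, 47366094 to 47427803), stood at 148, 124, 141 and 121 CPM for aged mice 1 to 4, against 123, 114, 131 and 126 CPM for young mice 1 to 4. Its log2 fold change was 0.11 (standard error 0.09, 95% interval -0.10 to 0.31, edgeR adjusted p = 0.464). Tgfbr2, the type II receptor that binds the ligand (chromosome 9, 115993415 to 116084383), stood at 138, 126, 96.95 and 118 CPM in the aged and at 120, 124, 138 and 134 CPM in the young mice. Both genes overlapped between the groups. The log2 fold change of Tgfbr2 was -0.11 (standard error 0.11, 95% interval -0.36 to 0.14, edgeR adjusted p = 0.564), and it became 0.0038 when libraries were scaled by their size only. The log2 ratio of Tgfbr1 to Tgfbr2 averaged 0.16 ± 0.26 (SD, n = 4) among the aged, against -0.06 ± 0.07 (SD, n = 4) among the young, and aged mouse 3, with 0.54, was the highest.

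Inside the cell, the activating and the inhibitory Smad both overlapped between the groups. Smad3, the receptor-activated Smad that carries much of the fibrotic response (chromosome 9, 63494574 to 63605801), ranged from 61.95 to 74.7 CPM in aged and from 59.7 to 73.1 CPM in young mice. Its log2 fold change was -0.04 (standard error 0.09, 95% interval -0.25 to 0.16, edgeR adjusted p = 0.786), and 0.07 with scaling by library size only. Smad7, which TGF-beta itself induces and which blocks the type I receptor, stood at 82.4, 54.6, 68.0 and 58.7 CPM for aged mice 1 to 4, against 62.6, 58.1, 62.9 and 67.8 CPM for young mice 1 to 4. Aged mouse 1 was the highest in Smad7 and aged mouse 2 the lowest of the 8. The log2 fold change was 0.07 (standard error 0.13, 95% interval -0.22 to 0.36, edgeR adjusted p = 0.754), and its sign turned to -0.06 without aged mouse 1. The log2 ratio of Smad7 to Smad3 was -0.04 ± 0.33 (SD, n = 4) among the aged, against -0.13 ± 0.16 (SD, n = 4) among the young.

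Both targets had a larger SD in the aged than in the young mice, and so did Tgfb1, Tgfb2, Tgfbr1, Tgfbr2, Smad7 and Bmp7. Smad3 went the other way, with an SD of 5.48 CPM in the aged and 6.245 CPM in the young mice. A larger SD in the aged mice was thus not particular to the targets, and the difference was not tested. Ctgf, the matricellular CCN protein that TGF-beta and YAP induce (chromosome 10, 24315248 to 24318489), stood at 190, 134, 125 and 94.4 CPM for aged mice 1 to 4, against 95.7, 137, 91.1 and 124 CPM for young mice 1 to 4. Aged mouse 1 was the highest, and the other aged mice lay within the young range. The means were 136 ± 40.1 CPM (SD, n = 4) among the aged, against 112 ± 22.3 CPM (SD, n = 4) among the young, a log2 fold change of 0.28 (standard error 0.22, 95% interval -0.21 to 0.77, edgeR adjusted p = 0.429). Without aged mouse 1 the log2 fold change of Ctgf was 0.07, and without aged mouse 4 it was 0.42. A predicted gene, Gm15270, lies on the opposite strand of Ctgf, and the counts were made by strand.

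Fn1, which encodes fibronectin (chromosome 1, 71632094 to 71699774), had the widest spread of the 9 genes relative to its mean in the aged mice. It stood at 37.8, 57.8, 34.5 and 96.7 CPM for aged mice 1 to 4, against 60.5, 60.8, 67.6 and 74.3 CPM for young mice 1 to 4. Aged mice 1, 2 and 3 lay below every young mouse and aged mouse 4 above every young mouse. The means were 56.7 ± 28.6 CPM (SD, n = 4) among the aged, against 65.8 ± 6.55 CPM (SD, n = 4) among the young, a log2 fold change of -0.21 (standard error 0.29, 95% interval -0.88 to 0.45, edgeR adjusted p = 0.667). Without aged mouse 4 the log2 fold change of Fn1 was -0.60 (edgeR adjusted p = 0.0774), without aged mouse 1 it was -0.06, and without aged mouse 3 it was -0.04. The summed macrophage markers followed the same order in the aged mice, with 100, 135, 91.3 and 196 CPM in aged mice 1 to 4. In young mice 1 to 4 they were 165.6, 111.4, 110.5 and 139 CPM. There the order differed, and young mouse 1, highest in these markers, was lowest in Fn1. All 8 macrophage markers were detected. Their log2 fold changes were positive in 7 of 8, with a median of 0.39, and none of these 7 was called, while Csf1r was called and was lower in the aged mice (log2 fold change -1.004, edgeR adjusted p = 0.0472). Of the 8, 2 had an unadjusted p below 0.05 by edgeR, where 25.5% of all genes did. The part of macrophages in the Fn1 values was not tested. The summed lymphocyte markers were also highest in aged mouse 4, at 45.4 CPM. They were 17.8 to 32.2 CPM in the other aged mice and 21.7 to 28.9 CPM in the young mice. Most of this sum was the marker Ptprc, at 14.0, 26.7, 24.8 and 39.8 CPM in aged mice 1 to 4. In the young mice Ptprc stood at 19.4 to 24.3 CPM. Each other lymphocyte marker stayed at or below 1.31 CPM in every mouse.

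**Figure D2:**
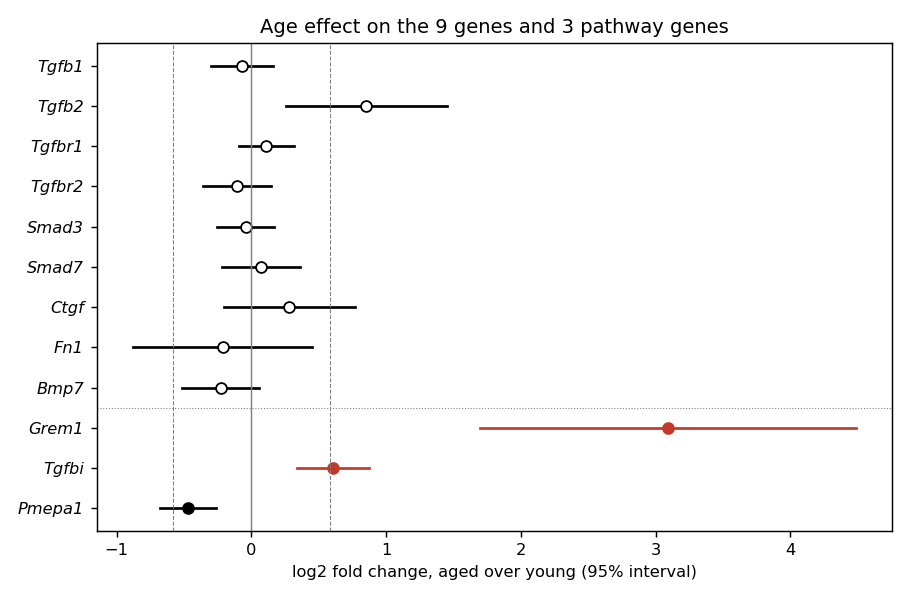
Log2 fold change of aged over young mice (horizontal axis) with its 95% interval from edgeR's quasi-likelihood test on 4 against 4 mice, for the 9 genes above the dotted line and 3 other pathway genes below it. Filled points have an adjusted p below 0.05, red ones also pass the fold threshold of 1.5 (dashed lines), and all 9 genes have open points.

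Aged mice 1 and 4 departed from their group in opposite ways in several of the 9 genes. On the log2 CPM scale aged mouse 1 lay 0.53 above the aged mean in Ctgf and 0.34 above it in Smad7, and it departed by -0.46 in Fn1 and by -0.39 in Bmp7. Aged mouse 4 departed by -0.48 in Ctgf and by -0.15 in Smad7, and lay 0.89 above the mean in Fn1 and 0.21 above it in Bmp7. In Tgfb2, by contrast, these 2 mice lay together below the aged mean, at -0.40 and -0.38. The largest departure in any young mouse was -0.33, in Tgfb2 of young mouse 4.

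**Figure D3:**
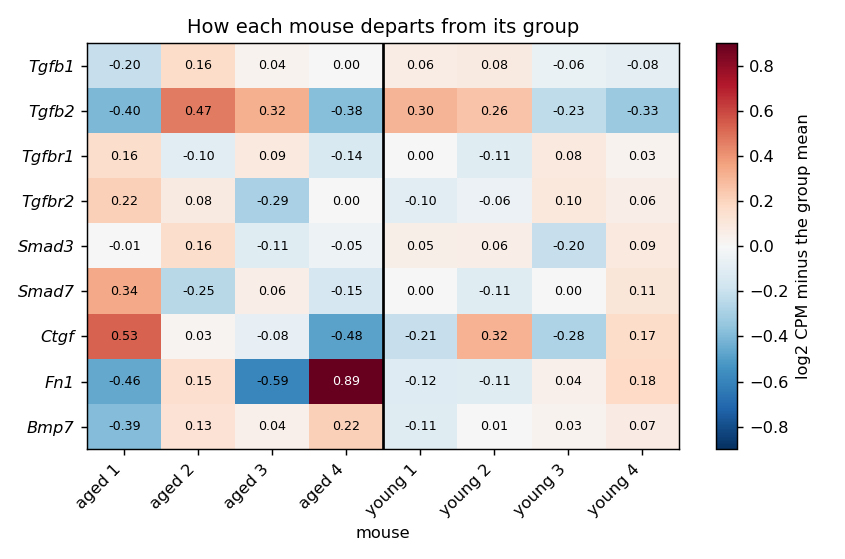
Departure of each mouse (columns) from the mean of its group in each of the 9 genes (rows), in log2 CPM, with red above and blue below the mean. Aged mouse 4 stands out in Fn1 (0.89) and aged mouse 1 in Ctgf (0.53), while no young mouse departs by more than 0.33.

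Compared per length, the target Ctgf was the most abundant of the 9 messages and Tgfb2 the least. CPM per kilobase of exon (FPKM) averaged 45.01 ± 8.96 (SD, n = 4) for Ctgf in young mice, 18.95 ± 1.08 for Tgfbr1, 15.9 ± 1.03 for Tgfbr2, 13.9 ± 0.875 for Smad7, 12.45 ± 1.13 for Smad3 and 11.5 ± 0.621 for Bmp7. Lower still were Fn1 at 7.89 ± 0.785, Tgfb1 at 7.04 ± 0.419 and Tgfb2 at 0.742 ± 0.171 FPKM (SD, n = 4 each). The mean levels had the same order in the aged mice. Between neighbors in this order, the ranges over the young mice overlapped for Tgfbr2 and Smad7, Smad7 and Smad3, Smad3 and Bmp7, and Fn1 and Tgfb1, and were separate for the others. In the aged mice Bmp7 and Fn1 overlapped as well. The aged Tgfb2 level, 1.35 ± 0.427 FPKM (SD, n = 4), stayed below the lowest Tgfb1 level of any mouse, 5.78 FPKM.

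For 3 of the genes, those whose pattern over the 8 libraries was most alike were sought among the 13943 others tested, by Pearson correlation of log2 CPM. For Bmp7 they were Slc13a4, Gphn and Gstz1 (each r = 0.99), for Ctgf they were Lbp (0.98), Msl3l2 (0.95) and Ctdp1 (0.94), and for Fn1 they were Ctbs (0.99), Slc35a3 (0.99) and Ahcyl1 (0.97). These values describe 8 libraries in which aged mouse 1 stands apart, and they carry no test.

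The rest of the pathway was read from 11 lists that hold 98 further genes measured in the counts. Of these, 86 could be tested and 2 were called, both higher in aged mice. This is 2.33%, against 2.06% of all genes tested that were called in either direction and 1.17% that were called higher. The groups did not overlap in 17 of the 86 genes, or 19.8%, against 18.9% of all genes tested.

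Extracellular modulators of BMP signaling held 1 of the 2 genes called. Grem1, the secreted antagonist Gremlin that binds BMP2, BMP4 and BMP7 (chromosome 2, 113586321 to 113598803), had 15, 29, 96 and 31 read counts for aged mice 1 to 4, against 5, 4, 4 and 5 for young mice 1 to 4. Aged mouse 3 was the highest, and every aged mouse was above every young mouse. In CPM it rose from 0.272 ± 0.0428 (SD, n = 4) in young to 2.36 ± 1.91 (SD, n = 4) in aged mice, a log2 fold change of 3.09 (standard error 0.62, edgeR adjusted p = 0.0401). Without aged mouse 3 the log2 fold change of Grem1 was 2.37 (edgeR adjusted p = 0.0482). In fits that each left out 1 mouse, the call of Grem1 was lost in 5 of 8 fits (without aged mouse 2 or any one young mouse, edgeR adjusted p up to 0.130). Of all genes, the fit without aged mouse 2 called 0.845%, and those without 1 young mouse called 0.0567% to 0.248%. Over the 8 fits the log2 fold change of Grem1 ranged from 2.37 to 3.40.

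The other 9 modulators tested did not pass by edgeR, and DESeq2 called 1 of them, Nbl1 (adjusted p = 0.0236), where it called 6.26% of all genes. Nbl1, a further BMP antagonist named here after its values were seen, stood at 26.6, 9.89, 11.3 and 7.90 CPM in aged mice 1 to 4 and between 4.08 and 7.83 CPM in the young mice. The groups did not overlap, and the log2 fold change was 1.21 (standard error 0.39, edgeR adjusted p = 0.106), and 0.68 without aged mouse 1. Over the 10 modulators tested the median log2 fold change was -0.06, with 5 positive and 5 negative values. The summed fibroblast and pericyte markers, which label cells known to make Gremlin and matrix, ranged from 304 to 472 CPM in aged and from 318 to 373 CPM in young mice. All 8 of these markers were detected and 0 were called. At an unadjusted p below 0.05 by edgeR 3 of 8 passed, where 25.5% of all genes did. The part of fibroblasts and pericytes in the Grem1 values was not tested.

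Among genes that TGF-beta is known to induce in fibrosis, 1 of the 18 tested was called. Tgfbi, a secreted matrix adapter named for its induction by TGF-beta (chromosome 13, 56710920 to 56740923), stood at 28.6, 39.4, 32.8 and 39.7 CPM for aged mice 1 to 4, against 23.6, 24.9, 22.8 and 21.0 CPM for young mice 1 to 4. Every aged mouse was above every young mouse. Tgfbi rose by 0.61 on the log2 scale (standard error 0.12, edgeR adjusted p = 0.0396), which is 1.52 times the young level and just past the fold threshold. With 1 mouse left out at a time it was called in 1 of 8 fits, the one without aged mouse 1. That fit called 3.17% of all genes, and the fits without 1 young mouse called 0.0567% to 0.248%. Over the 8 fits the log2 fold change of Tgfbi ranged from 0.54 without aged mouse 4 to 0.69. Its edgeR adjusted p reached 0.130 without young mouse 4.

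Both fibrillar collagens described here had negative log2 fold changes. Col3a1, the type III collagen chain, stood at 10.95, 32.9, 25.0 and 25.2 CPM for aged mice 1 to 4, against 62.7, 61.5, 56.6 and 40.8 CPM for young mice 1 to 4. Every aged mouse lay below every young mouse, and the log2 fold change was -1.24 (standard error 0.29, edgeR adjusted p = 0.0559). Col1a1, the main type I collagen chain and named after its values were seen, had an age difference on the log2 scale of -1.20 (standard error 0.32, edgeR adjusted p = 0.0729), with 6.53 to 22.2 CPM in aged and 30.4 to 42.7 CPM in young mice. Neither passed in the main test. Without aged mouse 1 both passed, with edgeR adjusted p values of 0.0196 for Col3a1 and 0.0184 for Col1a1 and log2 fold changes of -1.003 and -0.93. Both also passed with DESeq2 (adjusted p = 0.00109 for Col3a1 and 0.00512 for Col1a1) and with limma-voom (adjusted p = 0.0305 and 0.0312). In the edgeR fit without aged mouse 1 the list had 4 of its genes called, where 3.17% of all genes were called. With DESeq2 and with limma-voom the list had 3, where 6.26% and 3.46% of all genes were called. Over the 18 genes tested 9 had a positive and 9 a negative log2 fold change, with a median of -0.01. Of these 18, 7 had an unadjusted p below 0.05 by edgeR, where 25.5% of all genes did. Without overlap between the groups, 1 of the 18 was higher in the aged mice and 4 were lower. Among all 13944 genes tested, 1234 were higher and 1396 were lower without overlap.

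The sequences before the starts of Tgfbi and Grem1 are shown because these genes were called, with the same source, length and capitals as for the ligands. Tgfbi (chr13:56609336-56609585, plus strand) had 2 matches to CAGAC or GTCTG and 1 to GGCGCC, and Grem1 (chr2:113758649-113758898, minus strand) had 1 of each.
Tgfbi: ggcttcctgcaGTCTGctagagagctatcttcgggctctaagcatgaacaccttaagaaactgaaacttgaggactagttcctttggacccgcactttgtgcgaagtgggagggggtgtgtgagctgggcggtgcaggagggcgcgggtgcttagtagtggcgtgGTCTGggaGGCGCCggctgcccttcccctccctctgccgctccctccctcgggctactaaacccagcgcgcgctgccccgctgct
Grem1: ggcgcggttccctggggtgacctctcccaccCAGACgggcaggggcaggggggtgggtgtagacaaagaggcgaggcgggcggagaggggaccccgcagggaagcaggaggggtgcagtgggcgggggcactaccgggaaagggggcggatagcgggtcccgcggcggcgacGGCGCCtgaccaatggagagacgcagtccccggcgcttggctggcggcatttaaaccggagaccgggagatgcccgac

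**Figure D4:**
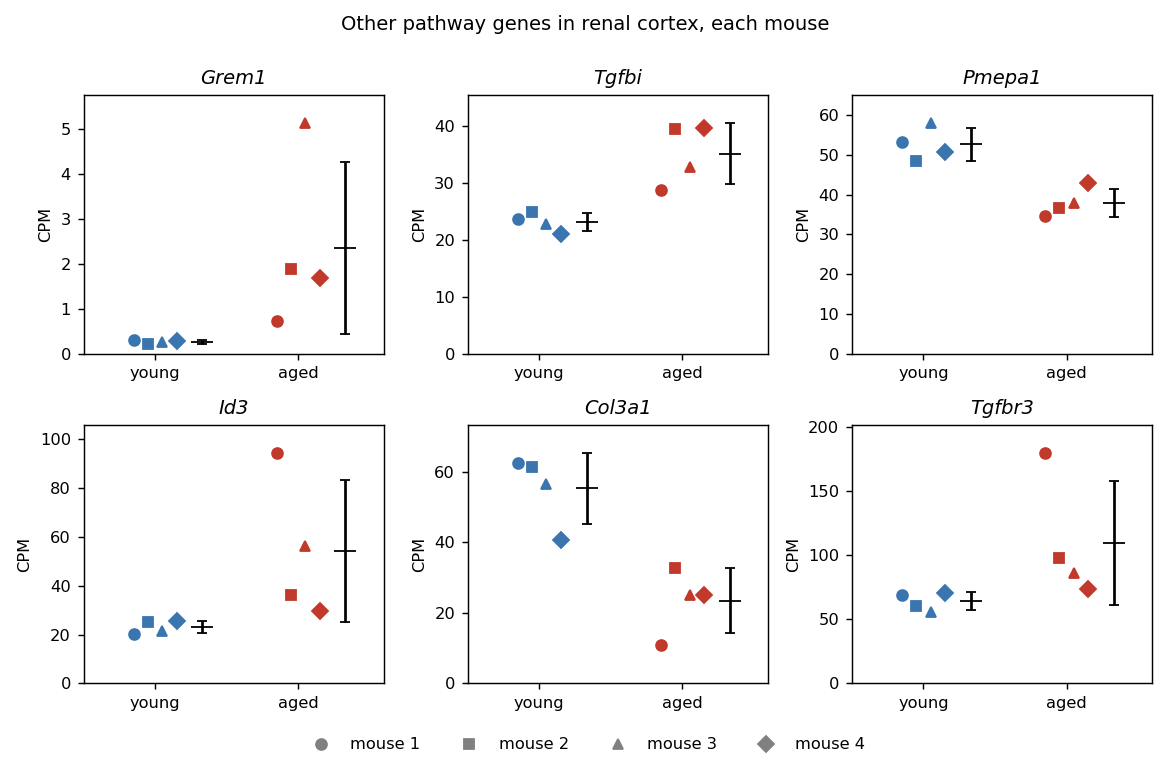
TMM-scaled CPM (vertical axis, linear, from 0) of 6 pathway genes in each young (blue) and aged (red) mouse, with the marker shape giving the mouse number and the black bar the mean ± SD of 4 mice. The groups do not overlap in any of the 6 genes; by edgeR Grem1 and Tgfbi passed both thresholds, Pmepa1 passed the adjusted p only, and Id3, Col3a1 and Tgfbr3 passed neither.

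Of the 10 TGF-beta Smads and their inhibitors, 0 passed both thresholds and 1 passed the adjusted p alone, which 2.95% of all genes tested did, 1.44% with the lower level in aged mice. This was Pmepa1, a TGF-beta-induced membrane protein that restrains Smad3 activation (chromosome 2, 173049959 to 173102034). It stood at 34.7, 36.6, 37.9 and 42.9 CPM for aged mice 1 to 4, against 53.3, 48.5, 58.0 and 50.6 CPM for young mice 1 to 4, with no overlap. The log2 fold change was -0.47 (standard error 0.09, edgeR adjusted p = 0.0393), or 0.723 of the young level, and the adjusted p was above 0.05 in 6 of the 8 fits with 1 mouse left out, up to 0.122 without young mouse 1. Ski, a nuclear corepressor of Smad signaling, had an age difference on the log2 scale of 0.25 (standard error 0.08, edgeR adjusted p = 0.107), with the lowest aged mouse at 151.2 and the highest young mouse at 150.9 CPM. At an unadjusted p below 0.05 by edgeR 3 of the 10 passed, where 25.5% of all genes did.

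By edgeR the lists of TGF-beta ligands, receptors and co-receptors held no call, while DESeq2 called Tgfb2 and Tgfbr3 (adjusted p = 0.0363 for Tgfbr3) and limma-voom called 0. Over all genes DESeq2 called 6.26% and limma-voom 3.46%. Of 12 TGF-beta ligands, latent binding proteins and activators, 1 (Tgfb2) had an unadjusted p below 0.05 by edgeR, where 25.5% of all genes did. Ltbp4, a latent TGF-beta binding protein, had the next smallest p, with a log2 fold change of -0.36 (edgeR adjusted p = 0.236). Of the 6 receptors and co-receptors, Tgfbr3, which encodes betaglycan, was 1.71 times its young level (log2 fold change 0.77, standard error 0.26, edgeR adjusted p = 0.113). Tgfbr3 stood at 180, 97.9, 86.0 and 73.4 CPM in aged mice 1 to 4 and between 56.1 and 70.8 CPM in young mice, so that every aged mouse was above every young mouse, and without aged mouse 1 the log2 fold change was 0.42. Eng, which encodes the endothelial co-receptor endoglin, had a log2 fold change of 0.24 (edgeR adjusted p = 0.312).

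On the BMP side, 0 of 6 ligands, 0 of 6 receptors and 0 of 9 Smads and BMP-induced genes were called by edgeR. At an unadjusted p below 0.05 by edgeR these lists had 1, 0 and 4 genes, where 25.5% of all genes passed. In the last of these lists DESeq2 called Id3 and Smad9, and limma-voom called Id3. Over all genes they called 6.26% and 3.46%. Bmp6, a ligand known for setting hepcidin and iron, had a log2 fold change of 0.39 (edgeR adjusted p = 0.138) and Bmp3 of 1.09 (edgeR adjusted p = 0.203), the latter 0.32 without aged mouse 1. Bmpr2, the type II BMP receptor, had a log2 fold change of 0.14 (edgeR adjusted p = 0.343) and the type I receptor Acvr1 of -0.17 (edgeR adjusted p = 0.363). All 9 Smads and BMP-induced genes had a positive log2 fold change, as 54.1% of all genes tested did. Their median was 0.25 against 0.03 over all genes, where scaling by library size only moved the median of all genes to 0.14. Id4 stood at 30.6, 17.6, 8.77 and 8.17 CPM in aged mice 1 to 4, against 9.45 to 18.7 CPM in young mice. The signs of the whole list without aged mouse 1 are not given here. Id3, a classic BMP-induced inhibitor of differentiation, stood at 94.5, 36.2, 56.3 and 29.7 CPM for aged mice 1 to 4, against 20.3, 25.0, 21.4 and 25.6 CPM for young mice 1 to 4. Every aged mouse was above every young mouse, and aged mouse 1 was the highest. The log2 fold change of Id3 was 1.23 (standard error 0.33, edgeR adjusted p = 0.0717), and 0.82 without aged mouse 1. Without aged mouse 4 Id3 passed both thresholds, at 1.43 (edgeR adjusted p = 0.0264). Smad9, a Smad of the BMP branch, had a log2 fold change of 1.24 (edgeR adjusted p = 0.0811), with overlapping groups.

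**Figure D5:**
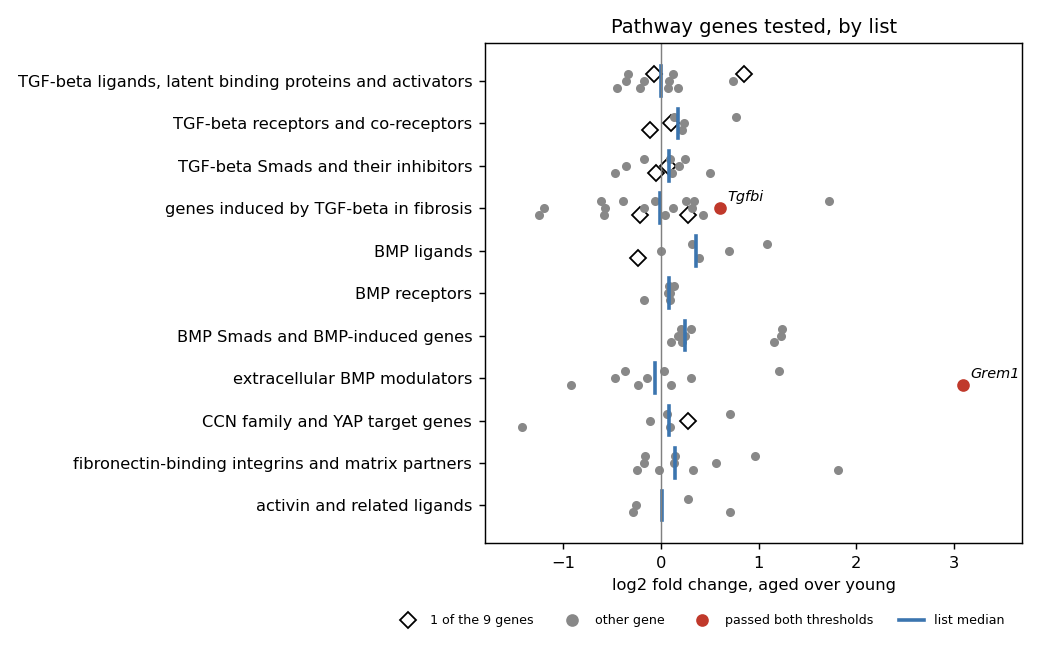
Log2 fold change of aged over young mice (horizontal axis) for every gene tested in each of the 11 pathway lists (rows), with the 9 genes as open diamonds, genes past both thresholds in red and the list medians as blue lines. Genes that belong to more than 1 list appear in each, and the 2 red points are Grem1 and Tgfbi.

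By edgeR the remaining lists also held no call, while DESeq2 called Amotl2, Wisp1 and Itgb3 in them and limma-voom called 0. Over all genes these 2 tools called 6.26% and 3.46%. Among 6 CCN family and YAP target genes, Amotl2, a YAP target and scaffold of the junctional angiomotin family, had an age difference on the log2 scale of 0.71 (standard error 0.19, edgeR adjusted p = 0.0703), and Wisp1, a CCN relative of Ctgf, of -1.42 (standard error 0.48, edgeR adjusted p = 0.116). In neither gene did the groups overlap. Without aged mouse 4 Amotl2 passed both thresholds (log2 fold change 0.80, edgeR adjusted p = 0.0437), and without aged mouse 1 it passed the adjusted p only, at a log2 fold change of 0.49 (edgeR adjusted p = 0.0397). Among 10 fibronectin-binding integrins and matrix partners, Itga5, the alpha chain of the classical fibronectin receptor, had an age difference on the log2 scale of 0.33 (standard error 0.09, edgeR adjusted p = 0.0806) and Itgb3 of 1.82 (standard error 0.53, edgeR adjusted p = 0.0890), both with every aged mouse above every young mouse. Without aged mouse 1 Itgb3 passed both thresholds (edgeR adjusted p = 0.0477), at a smaller log2 fold change of 0.96. Of 4 activin and related ligands, Gdf15 had a log2 fold change of 0.71 (edgeR adjusted p = 0.235) and Gdf11 of -0.28 (edgeR adjusted p = 0.616). At an unadjusted p below 0.05 by edgeR these 3 lists had 2, 3 and 0 genes, where 25.5% of all genes passed.

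The summed markers of each cell type overlapped between the groups. The log2 fold changes of single markers were negative in all 6 of the thick ascending limb (median -0.27). They were positive in all 6 lymphocyte markers tested (median 0.39), and the other lists held both signs. Of the 65 markers in 9 lists, 1 was called, Csf1r, the macrophage marker that went against the positive log2 fold changes of the other 7. Summed endothelial markers ranged from 536 to 759 CPM in aged and from 623 to 672 CPM in young mice, and podocyte markers from 339 to 655 CPM and from 466 to 570 CPM, with aged mouse 4 lowest in both. Distal convoluted tubule markers ranged from 1592 to 2011 CPM in aged and from 1314 to 2007 CPM in young mice, collecting duct markers from 336 to 493 CPM and from 352 to 410 CPM, and thick ascending limb markers from 3521 to 5564 CPM and from 5042 to 7558 CPM. In every list all markers were detected.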

How the data were processed

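RNA was extracted from the renal cortex with TRIzol, depleted of ribosomal RNA and made into stranded libraries. Paired ends of 100 bp were aligned by the authors with TopHat2 (UCSC mm9). HTSeq-count, set to the reverse strand, gave the deposited counts per RefSeq gene, which are raw. The submitters' processing notes also name CASAVA 1.8.2 and SAMtools. Other versions are not given in the sources used here. Each library was read from its own table. The 8 columns of a joint table were not used, since their names are not the sample titles. Groups came from the labels, and the study's methods describe 4 mice per group. The closing 5 lines of a table, which hold pairs given to no gene, stayed out of library sizes and tests. Pairs on no gene made up 19.9% to 29.9% and pairs aligned to several places 34.3% to 39.1% of each table's sum. No 2 libraries were duplicates (smallest chi-square per gene 9.22 over 14047 genes).

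Counts were fitted in R 4.3.3 with edgeR 4.0.16 (TMM, filterByExpr with a minimum count of 10, quasi-likelihood test, no covariate). Log2 CPM used a prior count of 2 and ratios a pseudocount of 0.5. Standard errors are the size of the log2 fold change divided by the square root of F. A floor of 3 counts corresponded to 0.147 to 0.204 CPM, which covers counting error only. Alternatives were 3 other scalings, 2 other filters, DESeq2 1.42.0, limma-voom with sample quality weights (limma 3.58.1), robust fitting, a block on the replicate number, leaving out single mice and the adjusted p alone. The fits were tested on simulated counts.

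GENCODE vM1, on the same build as mm9, gave exon lengths and positions, and promoters came from RefSeq on GRCm38.p6 (21 of the 31 genes named as results matched, not Smad7, Ctgf, Fn1 or Bmp7 among the 9). BLAST 2.17.0 at 98% identity over 100 nt found copies elsewhere in mm9 for 0.751% of the windows of Tgfbr2 and for none of the other 8 genes. Genes named are the 9, all list genes past an adjusted p of 0.05, the 2 with the smallest p in each list and the 3 most alike to Bmp7, Ctgf and Fn1. Col1a1, Nbl1, Csf1r, Id4 and Ptprc were named after their values were seen. The genes and lists were chosen with earlier results of these data known. One list gene, Ajuba, had no row under that symbol, and another is not reported here.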

Additional observations from a re-analysis of the deposited data

Results flagged for a closer look

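In a group of 4 mice, the highest or lowest was taken as far from the other 3 when its gap to the nearest passed Dixon's 95% critical value as a share of the group's range. This held in 8 of 88 groups, where 4.4 were expected by chance. Of the 9 genes 1 was among them, Smad3, in which young mouse 3 was lowest at 59.7 CPM with a gap of 0.865 of the range. Aged mouse 3 was highest in Acvr1 (17.5 CPM, 0.913 of the range) and in Itga5 (16.1 CPM, 0.836). Aged mouse 1 was highest in Bmp3 (8.94 CPM, 0.878), in Amotl2 (270 CPM, 0.840) and in Itgb3 (28.3 CPM, 0.864). Young mouse 4 was highest in Ski (151 CPM, 0.920) and in Amotl2 (142 CPM, 0.925).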

How the results depend on the processing

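None of the 9 genes was called under any of the alternatives except with DESeq2, which called 1 (Tgfb2). Over 153 refits of single genes among the 9, 147 kept the sign and the side of the adjusted p threshold. The sign turned with scaling by library size only for Tgfb1 (0.0357), Tgfbr2 (0.0038) and Smad3 (0.0666), and for Smad7 with limma-voom (-0.0312) and with 1 mouse left out (-0.0553 without aged mouse 1, up to 0.1492 without aged mouse 2). Over 373 refits of the other 22 named genes the sign never turned and 22 gained the adjusted p threshold. The 20 that lost it were all refits of Pmepa1, Tgfbi and Grem1, which alone had passed it in the main fit. Pmepa1 and Tgfbi each stayed past it in 10 of 17 refits, and Grem1 in 10 of 16. The number of genes called over the whole table was 411 with the adjusted p alone, 488 with scaling by library size only, 873 with DESeq2, 483 with limma-voom and 130 with the replicate number as a block, and with 1 mouse left out it ranged from 8 without young mouse 1 to 733 without aged mouse 4. The labels give same-numbered mice only the number in common and do not say whether they were processed together. Correlations of their deviations were -0.03 to 0.21, and 3 of 4 aged mice correlated best with their own number. Under the block the edgeR adjusted p rose to 0.0716 for Tgfbi, 0.0507 for Grem1 and 0.0781 for Pmepa1. Grem1 could not be tested with at least 10 counts in every library. Counts in the young mice were low for Grem1 (4 to 5), close to the floor of 3 counts, and the part of counting error in the Tgfb2 values was not tested.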
